A study of Mus musculus with 12 samples.

Results

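Dlx1, Foxn4, Ovol1 and Lmo1 are 4 developmental regulators whose transcripts were among those that stood lowest in testes without Sohlh1 or Sohlh2. They were chosen by their measured differences from wild type, as genes among the largest falls in either knockout, out of 18193 genes that the platform annotation names by a single symbol. The 4 genes were read by 5 probe sets, since Ovol1 had 2 and each of the others 1, and no probe set was shared with another gene. Whole testes were taken on postnatal day 7 and their RNA was read on 12 Affymetrix arrays, 4 of homozygous Sohlh1 knockouts (Sohlh1 KO), 4 of homozygous Sohlh2 knockouts (Sohlh2 KO) and 4 of wild type. All mice shared a hybrid background, which the labels write as C57BL/6, 129S5, SvEvBrd, and each array held RNA of 3 testes pooled from 3 animals, so the spread between arrays is a spread between pools. Both targeted genes encode germ cell transcription factors of the basic helix-loop-helix class, and the labels name neither a Cre nor a cell type to which the deletion would be limited.

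Dlx1 encodes a homeodomain transcription factor best known for its role in the interneurons of the forebrain. Foxn4 encodes a forkhead transcription factor that directs the birth of amacrine and horizontal cells in the retina and of a class of interneurons in the spinal cord. Ovol1 encodes a zinc finger repressor of epithelial and germ cells, and in mice it is needed for male germ cells to pass through meiotic prophase. Lmo1 differs in kind: it encodes a LIM-only protein, a cofactor with no DNA-binding domain of its own, which joins Ldb proteins to DNA-bound factors and is known as an oncogene of T-cell leukaemia. Sohlh1 and Sohlh2 act in spermatogonia, the mitotic germ cells of the testis, where they are needed for differentiation. Proteins of their class bind short DNA elements called E-boxes, which are written CANNTG.

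The promoters are shown because the 4 transcripts stood low together in mice that lack an E-box-binding factor. RefSeq windows of assembly GRCm38.p6, from 250 bases before to 50 bases after the transcript start, matched 3 of the 4 genes. No window is printed for Ovol1. Each sequence runs 5′ to 3′ on the strand of the gene, and capitals mark every match to CANNTG, a pattern that reads the same on both strands.
Dlx1, chr2:71529195-71529494, plus strand: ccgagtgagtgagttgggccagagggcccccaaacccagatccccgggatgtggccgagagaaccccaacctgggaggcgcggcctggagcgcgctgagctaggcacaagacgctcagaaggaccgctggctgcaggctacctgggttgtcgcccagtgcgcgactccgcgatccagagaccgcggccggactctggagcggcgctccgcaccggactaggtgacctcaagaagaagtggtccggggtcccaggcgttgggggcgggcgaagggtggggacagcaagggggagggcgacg
Foxn4, chr5:114273712-114274011, minus strand: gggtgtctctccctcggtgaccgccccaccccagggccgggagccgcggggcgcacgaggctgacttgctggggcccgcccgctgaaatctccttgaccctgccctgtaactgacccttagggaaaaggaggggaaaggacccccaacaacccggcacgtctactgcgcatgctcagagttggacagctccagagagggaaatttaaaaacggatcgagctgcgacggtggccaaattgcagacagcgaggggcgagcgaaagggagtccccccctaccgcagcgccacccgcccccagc
Lmo1, chr7:109175158-109175457, minus strand: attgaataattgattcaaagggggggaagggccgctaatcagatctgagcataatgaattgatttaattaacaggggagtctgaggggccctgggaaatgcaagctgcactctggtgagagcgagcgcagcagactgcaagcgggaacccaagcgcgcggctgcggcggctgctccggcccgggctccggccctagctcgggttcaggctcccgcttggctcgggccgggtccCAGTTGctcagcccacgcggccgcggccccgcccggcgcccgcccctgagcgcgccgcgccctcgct

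The Lmo1 window held 1 match, CAGTTG, whose first base lies at position -17 from the start. Lmo1 has a second, overlapping RefSeq window in which the same match lies at position -75. The Dlx1 window and the Foxn4 window held 0 matches. RefSeq places the Dlx1 gene at 71528113 to 71533981 and the Foxn4 gene at 114254164 to 114274418. Both windows thus lie inside their gene, and the outermost 5′ end of Dlx1 and Foxn4 was not searched. Of all 32851 promoter windows of this length, 72.3% held at least 1 match. The windows were rich in G and C, with 69.3% for Dlx1, 65.3% for Foxn4 and 66.3% for the printed Lmo1 window, against a median of 52.7% over all windows. A match is a stretch of letters and not a bound site, and a window without one says nothing about sites elsewhere.

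The labels were checked on the targeted genes, whose probe sets may lie outside the deleted parts. Sohlh1 read 50.2 to 103.9 on 3 Sohlh1 KO arrays but 594.6 on the array labelled Sohlh1 KO 5, against 1125 to 1233 in wild type. Sohlh2 read 73.2 to 157.3 on 3 Sohlh2 KO arrays but 1847 on the array labelled Sohlh2 KO 1, against 885.4 to 1200 in wild type. The array labelled Sohlh1 KO 5 had a low Sohlh2 signal of 94.4, and the array labelled Sohlh2 KO 1 had a Sohlh1 signal of 126.5, so each of these 2 arrays read like the other knockout at both genes. Both were kept under their labels. The 3′ to 5′ signal ratio of actin, a measure of RNA integrity, was 2.10 on the array labelled Sohlh1 KO 2 and 3.56 on that labelled Sohlh2 KO 1, against 1.30 to 1.45 on the other 10 arrays. On all 3 of these arrays the main probe sets of Dlx1, Foxn4, Ovol1 and Lmo1 lay below the lowest wild-type array.

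Signals are MAS5 intensities, for which the deposited values hold no present or absent call. Distance from background was therefore read in 3 ways. The first is a filter value of 48.6, the 40th percentile of all signals. The second is the percentile of a signal among all probe sets of its own array, and the third is the number of 43 olfactory receptor probe sets that read lower on the same array. Olfactory receptors are mostly silent outside the nose, and their median signal was between 9.58 and 21.6 and their 95th percentile between 43.2 and 77.1 across the 12 arrays. From 2.3% to 14.0% of them read above the filter value on an array, and the brightest read 55.8 to 106.1. Whether any of them is expressed in testis was not tested.

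Dlx1 stood at background in both knockouts and above it in wild type. Its probe set, 1449470_at, read 18.4, 2.2, 2.3 and 2.0 in Sohlh1 KO testes, 13.0, 29.1, 1.8 and 2.1 in Sohlh2 KO testes, and 77.4, 97.2, 142.8 and 121.8 in wild-type testes. All 8 knockout arrays lay under the filter value and all 4 wild-type arrays above it, with no overlap between groups. The means were 6.23 ± 8.13 in Sohlh1 KO, 11.5 ± 12.9 in Sohlh2 KO and 110 ± 28.6 in wild type (SD, n = 4 each). Within its array the signal ranked at the 3.3 to 23.4 percentile in Sohlh1 KO and the 2.7 to 29.4 percentile in Sohlh2 KO, against the 49.4 to 57.7 percentile in wild type. Of the 43 olfactory receptor probe sets, 2 to 28 read lower than Dlx1 on Sohlh1 KO arrays and 2 to 35 on Sohlh2 KO arrays, against all 43 on each wild-type array. So the wild-type signal stood above all of those receptors but only near the middle of its array, and the knockout signal stood among them.

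Because no knockout array measured Dlx1 above the filter value, its fold is a lower bound. The bound sets the wild-type mean on the log2 scale against the filter value, and Dlx1 was at least 2.20-fold lower in either knockout. On the scale used for all genes, log2 of the signal plus an offset of 14.2, Dlx1 differed by -2.64 in Sohlh1 KO and -2.37 in Sohlh2 KO from wild type. These differences chose the gene and carry no test. In bulk tissue, fewer cells of a type and less RNA per cell cannot be told apart, for Dlx1 and for every other gene described here.

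The antisense transcript Dlx1as overlaps Dlx1 by 3344 bases in RefSeq and has a probe set of its own. It read 3.8 to 38.4 in Sohlh1 KO, 3.0 to 31.9 in Sohlh2 KO and 4.8 to 35.5 in wild type, under the filter value on all 12 arrays. The groups overlapped fully, and no difference was measurable at this signal.

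Foxn4, read by 1425254_at, gave 7.7, 4.9, 46.7 and 30.6 in Sohlh1 KO testes, 21.2, 58.4, 10.3 and 44.5 in Sohlh2 KO testes, and 132.1, 154.3, 134.2 and 156.8 in wild-type testes. The wild-type arrays lay close together, while the knockout arrays varied widely, and the highest of them, Sohlh2 KO 3-1, was the only knockout array above the filter value. The means were 22.5 ± 19.8 in Sohlh1 KO, 33.6 ± 21.9 in Sohlh2 KO and 144 ± 13.0 in wild type (SD, n = 4 each). The percentile within the array was 10.3 to 38.5 in Sohlh1 KO and 16.7 to 43.7 in Sohlh2 KO, against 56.8 to 58.9 in wild type. On wild-type arrays Foxn4 read above all 43 olfactory receptor probe sets, and so it did on Sohlh2 KO 3-1. On Sohlh1 KO arrays 12 to 35 of the receptors read lower, and 20 to 43 on Sohlh2 KO arrays, with 41 on Sohlh2 KO 5. Foxn4 was at least 2.96-fold lower in Sohlh1 KO and at least 2.83-fold lower in Sohlh2 KO, where 1 of 4 arrays was measured above the filter value. The log2 differences were -2.28 in Sohlh1 KO and -1.85 in Sohlh2 KO.

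Ovol1, the zinc finger repressor, had 2 probe sets that did not give the same picture. The brighter, 1419051_at, read 22.9, 2.1, 29.9 and 22.7 in Sohlh1 KO testes, 26.02, 6.6, 16.2 and 2.8 in Sohlh2 KO testes, and 63.7, 90.6, 104.6 and 100.2 in wild-type testes. All knockout arrays were under the filter value and all wild-type arrays above it. The means were 19.4 ± 12.04 in Sohlh1 KO, 12.9 ± 10.4 in Sohlh2 KO and 89.8 ± 18.4 in wild type (SD, n = 4 each). Wild type ranked at the 46.2 to 53.2 percentile of the array, above 42 or 43 of the 43 olfactory receptor probe sets, so even in wild type it stood only a short way above background. Ovol1 was at least 1.82-fold lower in either knockout by this probe set, with log2 differences of -1.71 in Sohlh1 KO and -2.002 in Sohlh2 KO.

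The second Ovol1 probe set, 1419052_at, read 8.3, 24.7, 49.1 and 9.2 in Sohlh1 KO testes, 33.7, 9.2, 12.3 and 3.3 in Sohlh2 KO testes, and 28.1, 52.1, 49.0 and 53.9 in wild-type testes. Here the groups overlapped, and even in wild type only 3 of 4 arrays passed the filter value, by a narrow margin. Its log2 differences were -0.80 in Sohlh1 KO and -1.13 in Sohlh2 KO, of the same sign as those of the first probe set. The lower bound of its fold came to less than 1, so no fold is given.

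Lmo1 was not lost. Its probe set, 1418478_at, read 65.7, 80.1, 144.8 and 122.8 in Sohlh1 KO testes, 128.3, 102.6, 101.7 and 133.8 in Sohlh2 KO testes, and 381.3, 454.4, 360.1 and 583.2 in wild-type testes. Every knockout array stayed above the filter value and under every wild-type array. The means were 103 ± 36.8 in Sohlh1 KO, 117 ± 16.8 in Sohlh2 KO and 445 ± 101 in wild type (SD, n = 4 each). The percentile within the array was 46.8 to 57.7 in Sohlh1 KO and 52.7 to 58.1 in Sohlh2 KO, against 69.6 to 76.1 in wild type. At least 42 of the 43 olfactory receptor probe sets read lower than Lmo1 on each of the 12 arrays. Lmo1 alone of the 4 genes thus had a fold measured on both sides, 4.44-fold lower in Sohlh1 KO and 3.77-fold lower in Sohlh2 KO as a ratio of geometric means. Its log2 differences with the offset were -1.995 in Sohlh1 KO and -1.80 in Sohlh2 KO. Without the 2 arrays that read against their labels, the log2 differences in Sohlh1 KO and Sohlh2 KO were -2.56 and -2.44 for Dlx1, -2.43 and -1.75 for Foxn4, -1.78 and -2.22 for Ovol1, and -2.09 and -1.84 for Lmo1. The bounds were then at least 2.20-fold lower for Dlx1 and at least 1.82-fold lower for Ovol1 in either knockout, and at least 2.96-fold and 2.79-fold lower for Foxn4, while Lmo1 was 4.78-fold and 3.91-fold lower. A residual signal was thus measured for Lmo1, whereas for Dlx1, Foxn4 and Ovol1 23 of 24 knockout readings lay under the filter value.

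**Figure D1:**
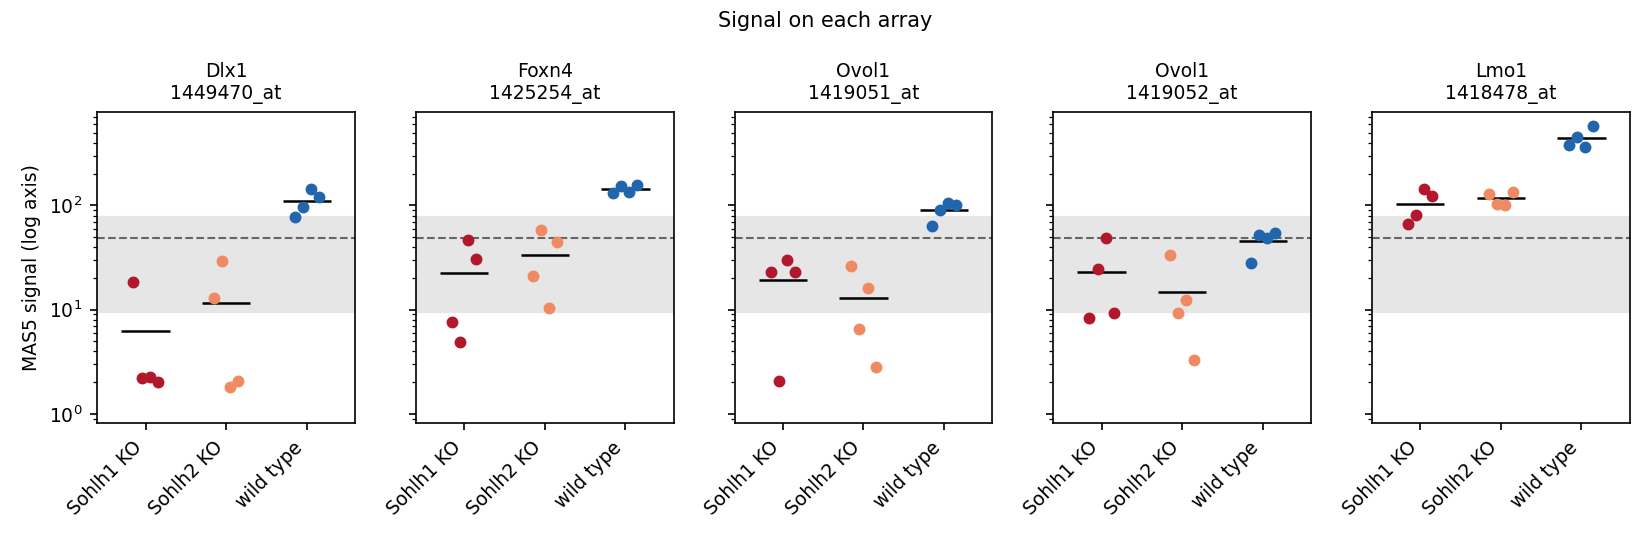
MAS5 signal (log axis) of the 5 probe sets on each array; each point is an array, horizontal bars are group means (n = 4 each), the dashed line is the filter value of 48.6, and the grey band runs from the lowest median to the highest 95th percentile of olfactory receptor probe sets, 9.58 to 77.1. Lmo1 stays above the dashed line in both knockouts, whereas Dlx1 and the first Ovol1 probe set fall below it on all 8 knockout arrays.

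**Figure D2:**
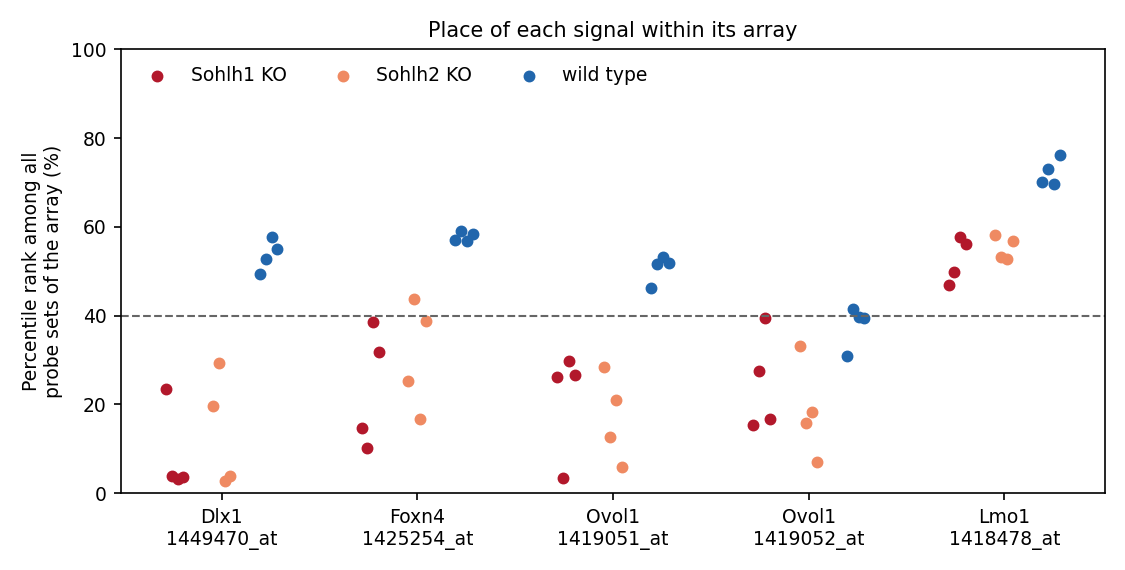
Percentile rank of each signal among all probe sets of its array, for both knockouts and wild type; the dashed line marks the 40th percentile. Dlx1, Foxn4 and the first Ovol1 probe set lie between the 46.2 and 58.9 percentile in wild type, and Lmo1 between 69.6 and 76.1.

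The groups did not overlap for 4 of the 5 probe sets in either comparison with wild type, where 13.5% of all 13702 genes tested were apart in Sohlh1 KO and 11.1% in Sohlh2 KO. Nothing is read from that count, because the same comparison chose the genes. Dlx1, Foxn4 (with 1 knockout array as the exception) and Ovol1 also passed the filter on low values only through their wild-type arrays.

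Among called genes with groups apart, ordered by the log2 fall, Dlx1 stood at rank 3 in Sohlh1 KO and rank 2 in Sohlh2 KO. Foxn4 stood at 7 and 11, Ovol1 at 20 and 8, and Lmo1 at 10 and 12 for Sohlh1 KO and Sohlh2 KO. The call, an adjusted p under 0.05, and the gap between groups served only to set the list that was ranked. Dlx1, Foxn4, Ovol1 and Lmo1 were chosen by that same comparison with wild type. Nothing is therefore read from their calls or gaps, and the ranks only describe the size of the fall. At the edge of the first 10 in Sohlh1 KO, Lmo1 at -1.995 was followed by Kit at -1.92. In Sohlh2 KO, Slc27a2 at -1.92 held rank 10 and Foxn4 at -1.85 followed it.

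These ranks turned on the offset, since the offset sets how much of a low signal is read as a difference. With no offset and values floored at 1, the log2 difference of Dlx1 was -4.85 in Sohlh1 KO and -4.12 in Sohlh2 KO, rank 1 and rank 2 of all falls. With the offset at the median of all signals it was -1.11 and -1.03, rank 20 and rank 21. Ovol1 moved most in rank: it stood at 6 and 3 with no offset and at 77 and 44 with the median as offset. Lmo1 moved the other way, from rank 18 and 32 with no offset to rank 10 and 11 with the median as offset. The order of the 4 genes by size of fall therefore depended on the scale, with Dlx1 first at low offsets and Lmo1 first at the high one. The direction was the same at all 3 offsets in both knockouts. With the groups apart no offset could reverse that direction, so nothing is read from it.

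**Figure D3:**
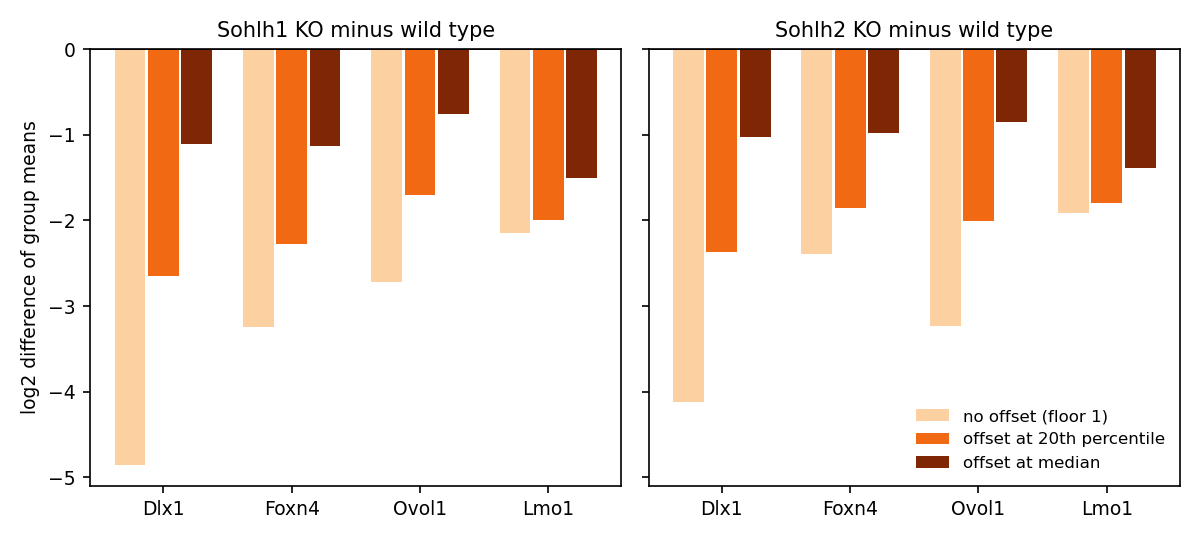
Log2 difference of group means from wild type at 3 log offsets, Sohlh1 KO on the left and Sohlh2 KO on the right. Dlx1 ranges from -4.85 to -1.11 in Sohlh1 KO, while Lmo1 ranges from -2.15 to -1.51.

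The knockouts were then compared with each other, which is a test that the selection did not use directly, although a gene taken for its fall in 1 knockout alone leans towards a difference here. None of the 4 genes passed the test between Sohlh2 KO and Sohlh1 KO. Dlx1 averaged 11.5 in Sohlh2 KO and 6.23 in Sohlh1 KO, a log2 difference of 0.28 with a 95% interval of -0.64 to 1.19. Foxn4 averaged 33.6 in Sohlh2 KO and 22.5 in Sohlh1 KO, a difference of 0.42 (-0.44 to 1.29). Ovol1 averaged 12.9 in Sohlh2 KO and 19.4 in Sohlh1 KO, a difference of -0.30 (-1.16 to 0.57). Lmo1 averaged 117 in Sohlh2 KO and 103 in Sohlh1 KO, a difference of 0.20 (-0.26 to 0.66). The limma adjusted p was 1.00 for each of the 4 after rounding, and 0 of 13702 genes passed an adjusted p of 0.05 (0%), while 390 had an unadjusted p under 0.05. The intervals of Dlx1, Foxn4 and Ovol1 still allow differences above 1 on the log2 scale, in signals of which 23 of 24 lay under the filter value. That of Lmo1 is the narrowest, and its signals lay above the filter value on all arrays. Each knockout group held 1 array that read like the other knockout, and neither Sohlh1 nor Sohlh2 itself passed this test. Without those 2 arrays, the differences were 0.12 for Dlx1, 0.68 for Foxn4, -0.44 for Ovol1 and 0.25 for Lmo1. Of 11 markers of differentiating spermatogonia, a list that holds both targeted genes, 1 was then higher in Sohlh2 KO and 1 lower (limma adjusted p under 0.05). The count of 0 over all genes therefore holds only for the fit of all 12 arrays.

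Each factor has paralogs and known partners that were not among the 4 genes chosen. Their lists were drawn up with earlier results of these data known, so they are no independent check. Of 57 such genes in 9 lists, 52 had a probe set and 36 passed the filter. In Sohlh1 KO 1 of the 36 rose and 1 fell by limma's adjusted p under 0.05, and in Sohlh2 KO 2 rose and 1 fell. Of all 13702 genes, 4.44% changed in Sohlh1 KO (1.76% rose and 2.69% fell) and 3.75% in Sohlh2 KO (1.6% rose and 2.15% fell), so the changed shares of the lists, 5.56% and 8.33%, rest on 2 and 3 genes beside that background. The median log2 difference over the 36 genes was 0.06 in Sohlh1 KO and -0.02 in Sohlh2 KO, against 0.03 and 0.02 over all genes. At an unadjusted p under 0.05, 8 of the 36 differed in Sohlh1 KO and 6 in Sohlh2 KO, where 19.0% and 17.5% of all genes did. The unadjusted counts of single gene and marker lists stand beside those same shares. Of the changed genes, Dlx3 and Lhx8 each passed the filter through the arrays of the group where they were high, so each was bound to differ, and nothing is read from the list's count. Without the 2 arrays that read against their labels the counts were again 2 and 3, with a limma adjusted p of 0.0249 and 0.0217 for Dlx3, 5.56e-05 and 0.000232 for Lhx8, and 0.00275 for Grhl2 in Sohlh2 KO. Between the knockouts 0 of the 36 passed the adjusted threshold, and 2 had an unadjusted p under 0.05.

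Of the Dlx paralogs, which encode homeodomain factors of the same family, Dlx2, Dlx3 and Dlx4 passed the filter. Dlx3, a factor of placenta, skin and teeth, stood in the opposite direction to Dlx1. Its probe set 1450475_at read 99.8, 93.2, 86.2 and 79.6 in Sohlh1 KO, 116.8, 112.1, 93.8 and 91.8 in Sohlh2 KO, and 19.99, 37.3, 43.4 and 41.3 in wild type. All knockout arrays lay above all wild-type arrays, and Dlx3 passed the filter only through the knockouts. The rise was 1.09 ± 0.24 on the log2 scale in Sohlh1 KO (limma adjusted p = 0.0134) and 1.27 ± 0.24 in Sohlh2 KO (limma adjusted p = 0.00546; SE). As wild type was under the filter value, Dlx3 was at least 1.84-fold higher in Sohlh1 KO and at least 2.12-fold higher in Sohlh2 KO.

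A second Dlx3 probe set, 1422037_at, did not show this. It read 2.9 to 75.9 in Sohlh1 KO, 11.9 to 83.9 in Sohlh2 KO and 23.2 to 79.4 in wild type, with full overlap. When both probe sets were averaged, neither call held (limma adjusted p = 0.693 in Sohlh1 KO and 0.391 in Sohlh2 KO). The Sohlh1 KO call was also lost without the 3 arrays named above, with a log2 difference of 1.09 (limma adjusted p = 0.0772). Dlx2, which lies beside Dlx1 and shares its role in the forebrain, averaged 41.3 in Sohlh1 KO, 43.6 in Sohlh2 KO and 42.0 in wild type, with log2 differences of -0.03 and -0.04. Of the interneuron genes that lie downstream of Dlx1 in the brain, only Nrp2 and Pak3 passed the filter, and 0 of the 2 changed by limma, also at an unadjusted p under 0.05.

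The Foxn paralogs Foxn1, Foxn2 and Foxn3 all passed the filter, and 0 of 3 changed by limma in either knockout. At an unadjusted p under 0.05 the count was 1 in Sohlh1 KO and 0 in Sohlh2 KO. Foxn3, a repressor made in many tissues, averaged 2432 in Sohlh1 KO, 2245 in Sohlh2 KO and 2187 in wild type. Foxn2 averaged 709 in Sohlh1 KO, 743.5 in Sohlh2 KO and 861 in wild type, log2 differences of -0.28 and -0.21. Of the genes through which Foxn4 acts in the retina and spinal cord, Dll4, Ptf1a, Gata2 and Tal1 passed the filter and 0 of 4 changed by limma, with 1 at an unadjusted p under 0.05 in each knockout.

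Ovol2, a zinc finger paralog of Ovol1, averaged 87.2 in Sohlh1 KO, 101 in Sohlh2 KO and 89.1 in wild type, and it did not pass the test in either. All 10 genes listed for Ovol1 in epithelia and testis passed the filter. Id2, a gene that Ovol1 represses in mouse germ cells, averaged 2745 in Sohlh1 KO, 2360 in Sohlh2 KO and 2357 in wild type, with log2 differences of 0.26 and 0.04 (limma adjusted p = 0.431 and 0.931). Myc, another gene that Ovol1 is known to repress, differed by 0.01 and -0.03. The mesenchymal gene Vim and the repressor Zeb1 did not pass the test in either knockout. Grhl2, an activator of epithelial genes, rose by 0.79 ± 0.17 in Sohlh2 KO (SE, limma adjusted p = 0.0142) and differed by 0.48 ± 0.17 in Sohlh1 KO (limma adjusted p = 0.126). Its probe set 1427046_at read 315.1, 256.1, 263.1 and 452.7 in Sohlh1 KO, 330.6, 447.4, 386.0 and 413.1 in Sohlh2 KO, and 221.1, 190.0, 249.4 and 228.8 in wild type. The other 3 Grhl2 probe sets were dim and did not show this rise. Probe set 1431877_a_at went the other way in Sohlh2 KO, with 10.7 to 53.1 against 54.6 to 61.3 in wild type. Probe set 1431878_at averaged 4.61 in Sohlh2 KO against 25.6 in wild type, and 1452643_at 13.4 against 16.8. The mean over all 4 lost the call (limma adjusted p = 0.984). Without wild type 4 the call was lost as well, at 0.72 on the log2 scale (limma adjusted p = 0.0566). Cdh1, which encodes E-cadherin, differed by 0.65 in Sohlh2 KO (limma adjusted p = 0.0671) and 0.46 in Sohlh1 KO.

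LIM-only proteins share their partners with LIM homeodomain factors, which bind the same Ldb cofactors. Lmo2 averaged 303 in Sohlh1 KO, 267 in Sohlh2 KO and 302 in wild type, and Lmo4 averaged 1752 in Sohlh1 KO, 1761 in Sohlh2 KO and 1819 in wild type. Neither paralog passed the test, also at an unadjusted p under 0.05. Ldb1, the cofactor that binds LIM domains, averaged 838 in Sohlh1 KO, 842 in Sohlh2 KO and 1021 in wild type, and 0 of 6 partners changed by limma, with 1 at an unadjusted p under 0.05 in each knockout. Among 7 LIM homeodomain genes that passed the filter 1 fell, Lhx8, a regulator of germ cells that is needed in mouse oocytes.

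Lhx8 read 10.5, 33.8, 26.9 and 18.6 in Sohlh1 KO, 1.4, 53.7, 27.2 and 23.7 in Sohlh2 KO, and 216.6, 272.2, 279.5 and 271.6 in wild type. The groups were far apart, and 7 of 8 knockout readings lay under the filter value, so Lhx8 passed the filter through its wild-type arrays. The log2 difference was -2.94 ± 0.38 in Sohlh1 KO (SE, limma adjusted p = 0.000181) and -2.93 ± 0.38 in Sohlh2 KO (SE, limma adjusted p = 0.000218). As the knockout values lay mostly at background, the measured fold is a bound, at least 5.32-fold lower in Sohlh1 KO and at least 5.19-fold lower in Sohlh2 KO. Lhx6, the closest relative of Lhx8, averaged 74.8 in Sohlh1 KO, 71.0 in Sohlh2 KO and 131 in wild type, but did not pass the test (limma adjusted p = 0.0836 and 0.0776).

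**Figure D4:**
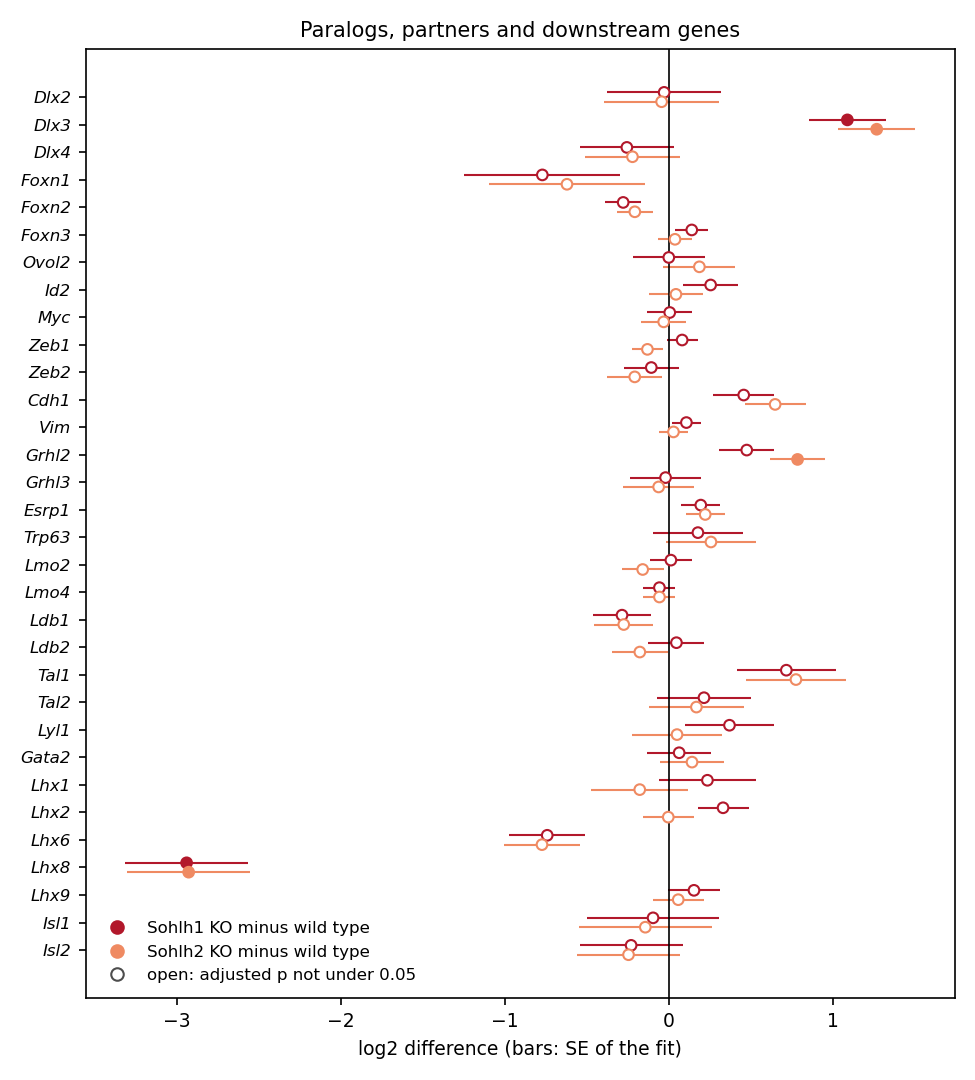
Log2 difference from wild type of related genes, as points with the standard error of the fit, for Sohlh1 KO and Sohlh2 KO (n = 4 each); filled points passed an adjusted p of 0.05. Lhx8 stands alone on the left at -2.94 and -2.93, and Dlx3 stands farthest to the right at 1.09 and 1.27. Both passed the filter through the arrays on which they were high, and nothing is read from their calls.

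Genes whose log2 signal was most like that of each regulator over the 12 arrays are given as a description, since all 12 points share the same 3 groups and arrays. For Lmo1 they were Sox3, a factor of early spermatogonia, the cyclin gene Ccnf, the amino acid transporter gene Slc16a10, the ligand gene Bmp7 and the kinase subunit gene Prkag2, with Pearson r from 0.985 to 0.968. For Dlx1 they were Gmnn, whose product holds back the licensing of DNA replication, the sialic acid synthase gene Nans, Aifm3, the RNA-binding protein gene Mbnl3 and the oxidoreductase gene Ero1a, with r from 0.961 to 0.945. For Foxn4 they were Ascl2, a basic helix-loop-helix factor, the mitotic kinase gene Plk1, 1700001L05Rik, the elongation factor kinase gene Eef2k and 2700038G22Rik, with r from 0.957 to 0.930. For Ovol1 they were Dmrt1, a regulator of male germ cells, the retinol carrier gene Rbp4, the DNA methyltransferase gene Dnmt3b, Figla, a germ cell basic helix-loop-helix factor, and the repair gene Brca1, with r from 0.941 to 0.922.

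After the group means were subtracted, only 2700038G22Rik for Foxn4 (r = 0.918) and Figla for Ovol1 (r = 0.924) were again among the 5 nearest genes. The 4 regulators correlated with each other at r of 0.77 to 0.93 over the 12 arrays. The selection set this, since genes chosen for low signals in the same knockouts go together across these groups. With the group means subtracted, r lay between -0.36 and 0.65, highest for Foxn4 with Lmo1 and lowest for Dlx1 with Lmo1. Of the knockout readings of Dlx1, Foxn4 and Ovol1, 23 of 24 lay under the filter value. Nothing is therefore read from any r with group means subtracted.

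Markers of differentiating spermatogonia moved with the 4 genes, and their part in these results was not tested. Of 11 such markers 7 fell in Sohlh1 KO and 6 in Sohlh2 KO, with a median log2 difference of -1.14 and -1.29, Crabp1, Kit and Uchl1 with the smallest p. Uchl1 is also expressed in earlier spermatogonia. Their summed signal was 17676 to 18923 in Sohlh1 KO and 17423 to 23349 in Sohlh2 KO, against 28905 to 34587 in wild type. The list holds Sohlh1 and Sohlh2 themselves, and Dmrtb1, Crabp1 and Kit of this list stand among the largest falls of these data. All marker lists were drawn up with earlier results of these data known, so their counts are no independent check. Without the 2 arrays that read against their labels, 8 of the 11 fell in each knockout and 1 rose in Sohlh1 KO. These counts include the targeted genes. On the arrays left, Sohlh2 read 1556 to 1783 in Sohlh1 KO and 73.2 to 157.3 in Sohlh2 KO, against 885.4 to 1200 in wild type. Of 12 germ cell markers of any stage 2 rose and 2 fell in Sohlh1 KO, and 2 rose and 1 fell in Sohlh2 KO. Of all genes 4.44% and 3.75% changed. Tex11, a meiosis gene, fell by 1.04 and 0.87 on the log2 scale, while Stk31 rose by 0.50 and 0.55 and Tdrd5 by 0.53 and 0.54. Rnf17 fell in Sohlh1 KO, with a log2 difference of -0.33. Tex11 and Stk31 kept their calls under all 27 alternatives. Tdrd5 lost its call under 15 of 27 in Sohlh1 KO and 13 in Sohlh2 KO, and Rnf17 under 13. Without the 2 arrays that read against their labels, 1 of the 12 rose and 3 fell in Sohlh1 KO, and 1 rose and 1 fell in Sohlh2 KO. Their sums over all arrays were 31856 to 36835 in Sohlh1 KO, 33677 to 37546 in Sohlh2 KO and 34613 to 39572 in wild type. Of 12 markers of undifferentiated spermatogonia 2 rose and 2 fell in each knockout. On the log2 scale Gfra1 rose by 0.97 and 1.01 and Id4 by 0.82 and 0.81, Sohlh1 KO first. Neurog3 differed by -1.19 and -0.98 and Sox3 by -1.11 and -0.997. Gfra1 lost both calls with the mean of probe sets. Without the 2 arrays that read against their labels, 2 rose and 3 fell in Sohlh1 KO, and 3 rose and 2 fell in Sohlh2 KO. All 13 with a probe set summed to 8635 to 11305 in Sohlh1 KO, 9699 to 11592 in Sohlh2 KO and 9401 to 9927 in wild type.

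Neuron markers were measured because Dlx1 and Foxn4 are best known from neurons. Of 5 neuron markers that passed the filter 0 changed by limma, with 2 at an unadjusted p under 0.05 in Sohlh1 KO and 0 in Sohlh2 KO, and the summed signal of all 7 was 1305 to 1546 in Sohlh1 KO, 1248 to 1587 in Sohlh2 KO and 1238 to 1496 in wild type. Of 12 Sertoli cell markers 0 changed by limma, with 1 at an unadjusted p under 0.05 in each knockout. Their sums were 82911 to 90351 in Sohlh1 KO, 77111 to 85435 in Sohlh2 KO and 74272 to 82225 in wild type. Every Sohlh1 KO sum thus lay above every wild-type sum. Clu alone averaged 39074 in Sohlh1 KO, 37921 in Sohlh2 KO and 34168 in wild type, so the sum leans on this gene. Of the Leydig cell, endothelial, macrophage and erythroid markers 0 changed by limma in either knockout, and 1 macrophage marker had an unadjusted p under 0.05 in Sohlh1 KO. Of 7 peritubular myoid markers, Actg2 fell in Sohlh2 KO, by 0.46 on the log2 scale (limma adjusted p = 0.0455), a call that was lost when any of 9 of the 12 arrays was left out.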

How the data were processed

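Whole-testis RNA of 12 pools of 3 testes was labelled from an oligo(dT) primer, per the labels' protocols. The deposited intensities are linear. The submitters' processing notes name MAS5 and GCOS as the tools, with no settings or versions. Checked on the values, every array had the same trimmed mean of 500 (2% removed at each end), with medians of 76.6 to 90.7. The number of arrays limits the precision.

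Groups came from the sample titles. The log2 scale used here adds an offset of 14.2 to each intensity, the 20th percentile of values once the 64 control probe sets are left out. Only probe sets that passed 48.6 (the 40th percentile) on 4 or more arrays were tested, and each of 13702 genes took its probe set of highest mean log2 value. Symbols came from the platform annotation, which gives 1 symbol for 34945 probe sets, several for 932 and none for 9160. Differences were fitted with limma 3.58.1 in R 4.3.3 (lmFit, eBayes with trend, two-sided) on genotype alone, using the 12 arrays together, with Benjamini-Hochberg adjustment across the 13702 genes. "Rose", "fell" and "changed" mean an adjusted p under 0.05. P-values measure the spread between pools. The fit was tested on simulated data.

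The 4 genes and all lists were chosen with earlier results of these data known. The rule for names took every probe set of the 4 genes, related genes with an adjusted p under 0.05 and up to 3 of the brightest of each list, the 5 genes of highest correlation, up to 3 cell type markers of smallest p, and Sohlh1 and Sohlh2. Dlx1as, Foxn4 and Ovol1 target genes without a call, Cdh1 and Lhx6 were added after their values were seen. Alternatives were other offsets, normalizations, filters, probe set choices, array weights, a replicate block and leaving out arrays. Same-numbered arrays of different groups deviated with correlations of -0.035 to 0.079, so numbers were not taken as pairs. Promoter sequences are RefSeq's for GRCm38.p6.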

Additional observations from a re-analysis of the deposited data

Results flagged for a closer look

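Among 42 groups of 4 arrays examined, 6 had an array far from the other 3, and chance gives about 1 in 20. Dlx1 read 18.4 on the array labelled Sohlh1 KO 2, above 2.3 or less on the other 3 Sohlh1 KO arrays, though all 4 lie at background. Sohlh1 read 594.6 and Sohlh2 94.4 on the array labelled Sohlh1 KO 5, and Sohlh2 read 1847 on the array labelled Sohlh2 KO 1, as described with the check of the labels. Lhx8 read 216.6 on wild type 3, the lowest wild-type array, still above every knockout array. The dim Grhl2 probe set 1431878_at read 6.79 on wild type 3.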

How the results depend on the processing

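The direction against wild type was the same for Dlx1, Foxn4, Ovol1 and Lmo1 under every alternative run, but the size followed the log offset. The genes were chosen for their fall, and with groups apart no offset or left-out array could reverse the direction. Nothing is therefore read from the constant direction. With no offset the log2 differences in Sohlh1 KO were -4.85 for Dlx1, -3.24 for Foxn4 and -2.72 for Ovol1, and in Sohlh2 KO -4.12 for Dlx1 and -3.23 for Ovol1. With the offset at the median they were, in Sohlh1 KO, -1.11 for Dlx1, -1.13 for Foxn4, -0.76 for Ovol1 and -1.51 for Lmo1, and in Sohlh2 KO -1.03 for Dlx1, -0.98 for Foxn4, -0.85 for Ovol1 and -1.39 for Lmo1. Leaving out each array in turn gave, in Sohlh1 KO, -2.89 to -2.52 for Dlx1, -2.58 to -2.02 for Foxn4, -1.87 to -1.39 for Ovol1 and -2.16 to -1.83 for Lmo1, and in Sohlh2 KO -2.66 to -2.18 for Dlx1, -2.09 to -1.57 for Foxn4, -2.22 to -1.81 for Ovol1 and -1.89 to -1.66 for Lmo1. Between Sohlh2 KO and Sohlh1 KO the Dlx1 difference ran from -0.0172 (without Sohlh2 KO 3-1) to 0.53, and that of Lmo1 was -0.0119 with the replicate block; neither was called under any alternative. The count of changed related genes in Sohlh1 KO was 1 in place of 2 with the filter at the 60th percentile, with the mean of probe sets, with the replicate block, without the 3 doubted arrays and at an adjusted p under 0.01; in Sohlh2 KO it was 1 in place of 3 with the mean of probe sets, and 2 to 4 when single arrays were left out. With the replicate block the gene lost was Dlx3 (log2 1.11, limma adjusted p = 0.0650). Averaging probe sets joins bright and dim ones, and for Grhl2 in Sohlh2 KO also probe sets of opposite direction. The cause of the losses was not tested. With the 95th percentile of the olfactory receptor probe sets in place of the filter value, the lower bounds were 2.10 and 2.16 for Dlx1, 2.83 and 2.81 for Foxn4, and 1.73 and 1.78 for Ovol1, Sohlh1 KO first. Lhx8 kept its call under all 27 alternatives in both knockouts. As it passed the filter through its wild-type arrays, nothing is read from that. Low signal limits Dlx1, Foxn4 and Ovol1, whose knockout values carry no order.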
